A study of Mus musculus with 35 samples.

Results

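In female mouse germ cells, 8817 genic stretches of 10 kb carried the histone mark H3K36me3 at a late stage and not at an earlier one, both in cultured oocyte-like cells and in oocytes from animals. Each of the 8817 stretches (bins counted from the first base of an autosome, build GRCm38) overlapped a protein-coding gene, was covered by H3K36me3 peaks in c34 oocyte-like cells and in germinal vesicle (GV) oocytes, and held no H3K36me3 peak in c13 oocyte-like cells or in fetal oocytes of stage E18.5. They made up 7.85% of the 112280 genic bins of the 19 autosomes, or 88.17 Mb, and 15.4% of the 57088 genic bins that carried the mark at both late stages. These bins are called gained bins below. The bins were thus chosen by their H3K36me3 peaks at these 4 stages, so their H3K36me3 values are a description, while H3K4me3 and H3K27me3 played no part in the choice.

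The study mapped histone H3 marks by CATCH-seq, a chromatin immunoprecipitation method for low cell numbers, and its title names GV oocytes derived from embryonic stem cells. All groups were labelled wild type. The c7 oogonia-like cells and the c13 and c34 oocyte-like cells were grown from 1 embryonic stem cell line, H18, bearing the reporters Prdm1-mVenus and Dppa3-ECFP, so each cultured stage rests on 1 cell line. The E18.5 oocytes came from mice carrying both reporters, and the GV oocytes from BDF1 mice. H3K36me3 had 2 libraries at each of c13, E18.5, c34 and GV. H3K4me3 had 4 libraries in c13, 2 at E18.5, 2 in c34 cells, and 1 in GV oocytes. H3K27me3 had 2 in c7, 2 in c13, 2 at E18.5, 2 in c34 cells, and 1 in GV oocytes. The files held 1 list of peak positions per stage and mark, with no score and an unknown depth. No difference could therefore be set against replicate spread and no test was run; ranges over the 19 autosomes describe variation along the genome. Of 26 genes for oocyte factors, 18 had an H3K4me3 peak at the start in c13, 14 at E18.5, 25 in c34 cells, and 24 in GV oocytes. Of 17 germline and piRNA genes, 15, 13, 13 and 15 had one at these stages. Among them Ddx4 and Dazl had one at all 4 stages and Piwil2 at none. Of 19 genes of ovarian somatic cells, 13, 8, 11 and 11 had one. Foxl2, Wnt4, Amh and Kitl had one at all 4 stages, while Fshr, Star, Cyp19a1 and Hsd3b1 had none at any. The part of other cells in the results was not tested.

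H3K36me3 is placed by SETD2, which travels with elongating RNA polymerase II, and it therefore lies over the bodies of transcribed genes. In growing oocytes it guides the de novo DNA methylation complex of DNMT3A and DNMT3L, including at imprinted loci that are methylated in the maternal germline. H3K27me3 is laid down by Polycomb repressive complex 2, which is hindered by H3K36me3 on the same histone tail. H3K4me3 marks promoters at most stages, and in full-grown mouse oocytes it also forms broad domains away from promoters in regions without DNA methylation.

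Gained bins held genes with unlike promoters, and 6 promoters illustrate both kinds. They are shown because the data bear on them: the gene bodies lay wholly in gained bins, and the H3K4me3 peaks at their starts differed in timing. All run from 250 bases before to 50 bases after the annotated start, 5′ to 3′ on the gene's strand, are RefSeq sequences of GRCm38.p6, and have CpG dinucleotides in capitals. The first 3 belong to genes with H3K4me3 at the start at all 4 stages: Scfd2 (chr5:74531693-74531992, minus strand), a gene of the Sec1 family, Jazf1 (chr6:53068575-53068874, minus strand), which encodes a zinc finger protein, and Chn2 (chr6:54039682-54039981, plus strand), which encodes a Rac GTPase-activating protein.
Scfd2: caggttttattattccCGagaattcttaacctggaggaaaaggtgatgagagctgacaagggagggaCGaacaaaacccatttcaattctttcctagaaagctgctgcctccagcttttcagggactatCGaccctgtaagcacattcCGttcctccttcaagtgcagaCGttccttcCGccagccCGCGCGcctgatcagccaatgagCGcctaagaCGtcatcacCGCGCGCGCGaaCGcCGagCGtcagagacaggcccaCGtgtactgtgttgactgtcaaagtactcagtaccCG
Jazf1: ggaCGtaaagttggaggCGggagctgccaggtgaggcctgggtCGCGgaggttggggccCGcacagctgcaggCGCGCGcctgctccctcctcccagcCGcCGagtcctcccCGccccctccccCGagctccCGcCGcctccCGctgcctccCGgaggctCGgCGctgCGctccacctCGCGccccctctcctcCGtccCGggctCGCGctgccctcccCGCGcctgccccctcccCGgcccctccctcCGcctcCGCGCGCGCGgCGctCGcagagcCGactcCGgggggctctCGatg
Chn2: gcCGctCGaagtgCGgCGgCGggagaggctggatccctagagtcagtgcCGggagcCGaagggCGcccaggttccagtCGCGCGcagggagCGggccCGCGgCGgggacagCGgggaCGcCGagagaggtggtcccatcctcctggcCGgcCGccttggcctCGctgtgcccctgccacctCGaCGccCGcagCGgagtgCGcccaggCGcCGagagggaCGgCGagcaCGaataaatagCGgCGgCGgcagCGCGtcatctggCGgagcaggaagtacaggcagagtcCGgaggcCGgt

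The other 3 belong to genes with H3K4me3 at the start in c34 and GV oocytes and in neither c13 nor E18.5 oocytes: Fam169b (chr7:68273589-68273888, plus strand), Gm5724 (chr6:141778070-141778369, minus strand) and Trappc3l (chr10:34037347-34037646, plus strand), a paralogue of a vesicle transport subunit.
Fam169b: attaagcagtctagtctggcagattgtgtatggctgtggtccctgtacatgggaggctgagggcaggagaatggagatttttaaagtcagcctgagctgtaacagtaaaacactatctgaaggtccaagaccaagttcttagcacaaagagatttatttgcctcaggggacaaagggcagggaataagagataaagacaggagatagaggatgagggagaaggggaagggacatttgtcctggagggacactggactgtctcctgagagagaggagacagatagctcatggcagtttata
Gm5724: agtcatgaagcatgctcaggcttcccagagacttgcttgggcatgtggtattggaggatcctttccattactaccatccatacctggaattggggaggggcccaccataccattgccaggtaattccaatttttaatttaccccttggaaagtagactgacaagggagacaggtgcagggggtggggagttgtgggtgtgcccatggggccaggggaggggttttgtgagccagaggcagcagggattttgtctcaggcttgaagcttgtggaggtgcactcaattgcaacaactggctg
Trappc3l: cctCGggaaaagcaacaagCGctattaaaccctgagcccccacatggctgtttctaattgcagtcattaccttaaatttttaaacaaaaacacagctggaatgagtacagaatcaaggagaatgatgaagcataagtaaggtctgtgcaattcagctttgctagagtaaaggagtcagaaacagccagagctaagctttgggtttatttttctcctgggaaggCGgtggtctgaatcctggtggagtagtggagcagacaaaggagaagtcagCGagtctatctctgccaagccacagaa

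The promoters of Scfd2, Jazf1 and Chn2 held 21, 39 and 39 CpG dinucleotides, and those of Fam169b, Gm5724 and Trappc3l held 0, 0 and 4. Other wholly gained genes split less cleanly. With H3K4me3 at the start at all 4 stages, Bmpr1b and Foxp1 held 5 and 13. Prickle2, Med12l, Nav1 and Fryl, marked likewise, held 25, 30, 24 and 22. With late peaks alone, Rfc1 held 35, and Nlrp2, Nostrin and Zcchc4 held 3, 3 and 4. As medians, the contrast appeared over the sets the 6 promoters came from. A median of 24 CpG dinucleotides stood in the 632 promoters of genes with at least 50% of the body in gained bins and H3K4me3 at the start at all 4 stages. The median was 4 in the 43 promoters with the peak at both late stages alone and 2 in the 115 with no peak at any stage, against 14 in all 16456 autosomal promoters. Both strands were searched for the E-box CANNTG, bound by basic helix-loop-helix factors, for TAATTG, a homeodomain core, and for the GC box GGGCGG; no match of one of these can be a match of another at the same place. CANNTG occurred in 79.1% of the 43 late promoters and in 68.4% of all promoters, TAATTG in 16.3% and 7.07%, and GGGCGG in 25.6% and 47.3%. In the 115 promoters with no peak at any stage the shares were 83.5%, 11.3% and 6.96%. Of the 6 promoters shown, all held CANNTG, Trappc3l alone held TAATTG and Jazf1 alone held GGGCGG. A match is a description of the letters and not of a bound factor.

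Gained bins lay within genes and in long stretches. Of the 8817 bins, 84.5% were wholly genic, against 74.3% of all genic bins, and 95.5% overlapped a single gene, against 93.6% of all genic bins. At the edge of the rule, the smallest genic overlap was 15 bp, and 103 bins had less than 1 kb of gene. A further 574 bins without a protein-coding gene gained the mark at both late stages and lay beside a genic bin, gained or not. Just outside it, 1725 genic bins free of early peaks carried the mark in c34 alone and 3339 in GV oocytes alone. Adjacent gained bins formed 1149 runs with a median of 50 kb and a maximum of 660 kb. The 302 runs of at least 100 kb held 5551 bins, or 63.0%, and 179 runs were a single bin. The runs lay in late H3K36me3 peaks. With gained bins as the unit, the peak around a bin had a median width of 240 kb (c34) or 250 kb (GV). A wide peak counted many times in these medians. With each peak of a list counted once, the median widths were 100 kb (c34) and 105 kb (GV). An early H3K36me3 peak touched 364 runs, in c13 at 179 and at E18.5 at 240, so these runs continued a stretch that was marked before. From the other side, the median distance of a run to the nearest H3K36me3 peak was 600 kb in c13 and 310 kb at E18.5, with each run counted once.

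The longest run, chr7:48950001-49610000, covered Nav2, a neuron navigator gene that acts on the cytoskeleton. The next, chr3:141530001-142170000 at 640 kb, spanned 2 neighbours, Unc5c, a netrin receptor gene, and Bmpr1b, which encodes a type I bone morphogenetic protein receptor needed for female fertility. The third, chr6:98920001-99530000 at 610 kb, held Foxp1, a forkhead transcription factor gene. The Foxp1 run lay 2810 kb from the nearest c13 peak and 340 kb from the nearest E18.5 peak, and the Nav2 run 1750 kb and 920 kb away. The Unc5c and Bmpr1b run lay only 20 kb from peaks at both early stages. Some long runs held many genes: chr1:134540001-135110000 held 6, among them the H3K4 demethylase gene Kdm5b, and chr5:65200001-65700000 held 9, among them Rfc1, which encodes the large subunit of the clamp loader of DNA replication.

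Chromosomes differed widely in how much was gained. Gained bins made up 16.4% of the genic bins of chromosome 1, 12.7% of chromosome 6 and 12.6% of chromosome 3, but 1.46% of chromosome 17 and 1.71% of chromosome 18. The late lists were more even: both covered between 39.0% and 58.2% of the genic bins of an autosome. The c13 list varied from 35.1% on chromosome 3 to 86.3% on chromosome 11, and autosomes with much c13 coverage had few gained bins (17, 11, 19 and 18), which the rule itself brings about in part. Over all autosomes, H3K36me3 covered 60.6% of genic bins in c13, 23.2% at E18.5, 56.9% in c34 cells, and 58.1% in GV oocytes. The 2 early lists had another form than the late ones. Peaks of at least 1 Mb held 80.6% of the c13 length and 36.5% of the E18.5 length, against 4.94% in c34 and 5.05% in GV oocytes. The E18.5 list covered genic bins and other bins about equally, 23.2% and 24.4%, where the c34 list covered 56.9% and 19.4%. Without the early peaks of at least 1 Mb, 45179 bins would count as gained, so the number gained rests on those wide peaks.

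**Figure D1:**
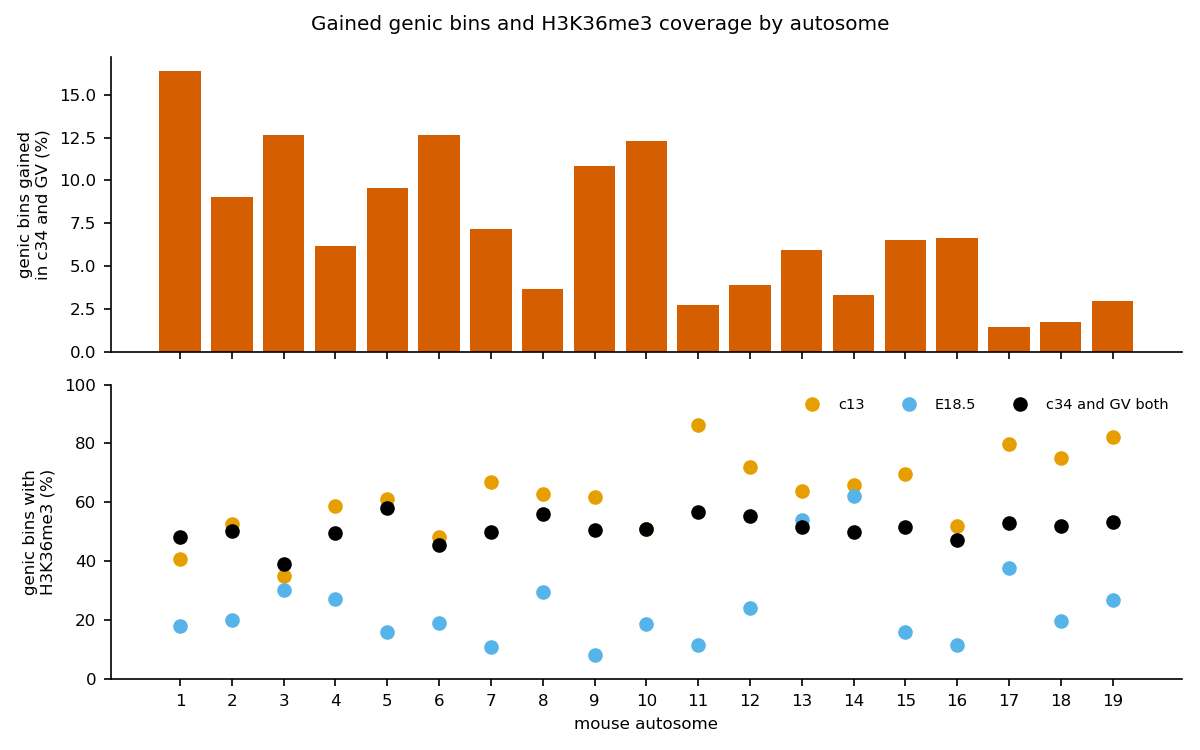
Upper panel: percentage of genic 10 kb bins gained at both late stages, 1 bar per autosome. Lower panel: percentage of genic bins with an H3K36me3 peak in c13, at E18.5 and at both late stages, 1 point per autosome; the late points stay between 39.0% and 58.2% while c13 spans 35.1% to 86.3%.

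Gained bins touched 1552 of 20661 autosomal protein-coding genes (7.51%). They covered at least 50% of the body of 1096 genes (5.30%) and the whole body of 624. These 1096 genes had a median length of 30.65 kb, against 17.5 kb for all genes, and 17.4% of them reached 100 kb, against 11.2%. Around gained bins the median was 6 genes per Mb, as around bins marked at E18.5 and both late stages but not in c13. It was 14 for bins marked in c13 and both late stages but not at E18.5, 8 for bins in all 4 lists and for all genic bins, and 3 for bins in no H3K36me3 list.

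Profiles were taken along the 319 of these genes that were at least 50 kb long and had a known strand. These genes were chosen for late peaks over the body, which in part brings about the shape described next. Late H3K36me3 rose from the start into the body and dropped past the end. In c34 it covered 43.9% of genes at 20 kb before the start, 63.6% at the start and 94.7% at 50 kb into the gene. The GV values were 44.5%, 52.7% and 92.2%. At the annotated end it covered 84.0% of genes in c34 and 86.5% in GV oocytes, and 20 kb further 54.2% and 53.3%. At 20 kb past the end a late peak was thus present for some genes and absent for others. The early lists covered 3.45% of starts in c13 and 2.19% at E18.5. The choice of genes fixes the contrast between early and late lists and the high late coverage inside the genes. Whether the fall outside them goes beyond that choice was not tested.

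**Figure D2:**
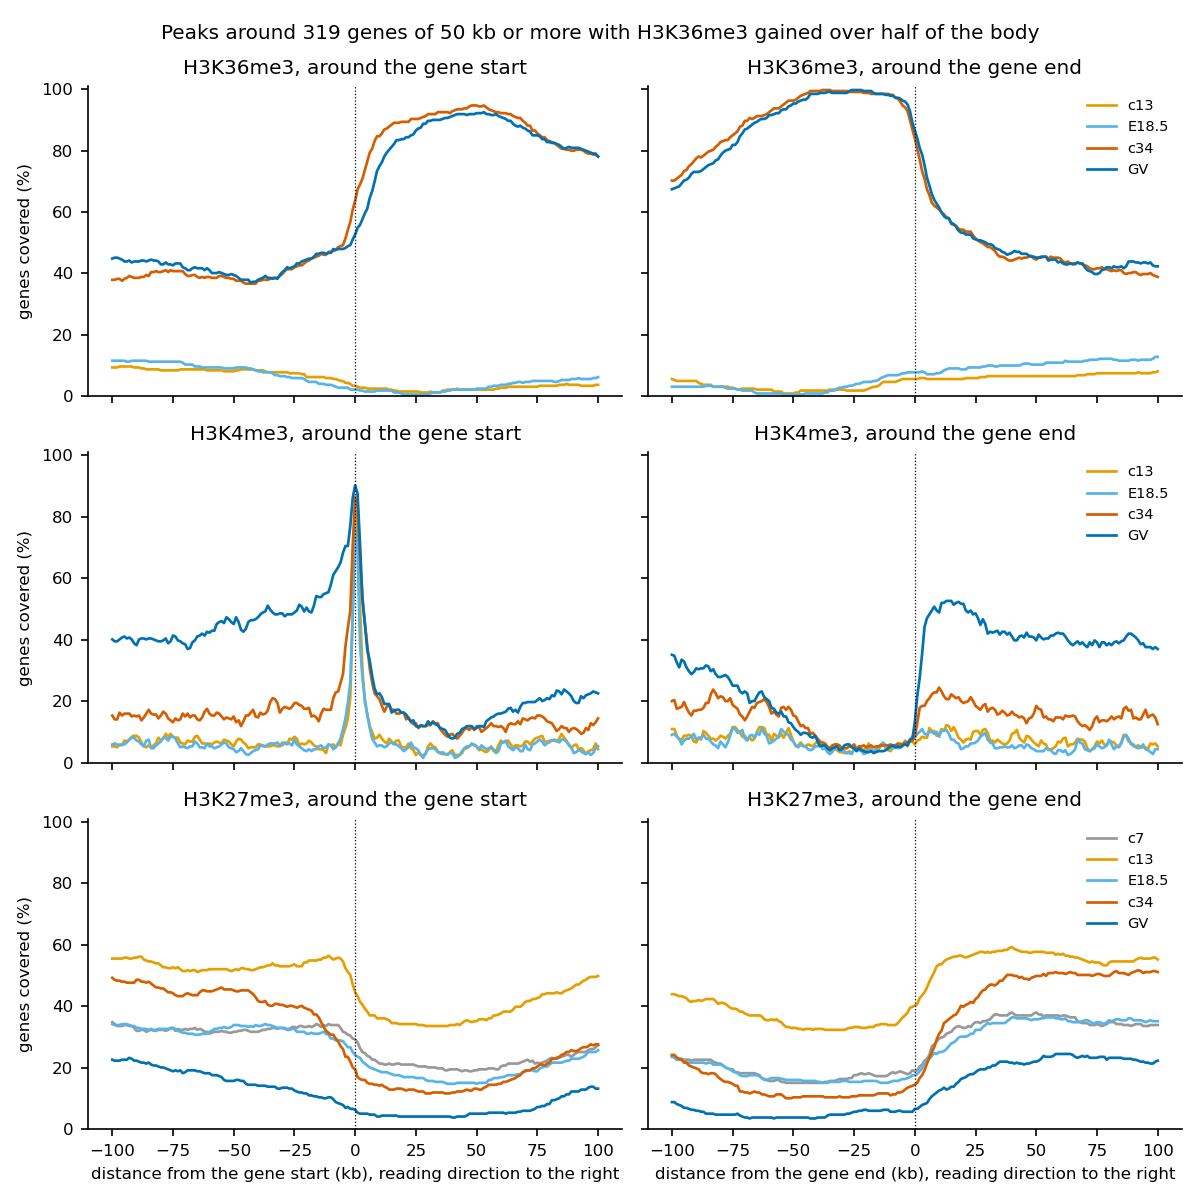
Percentage of the 319 genes of at least 50 kb covered by a peak (vertical axis) by distance in kb from the annotated start (left) or end (right), with 1 line per stage, for H3K36me3, H3K4me3 and H3K27me3 from top to bottom. H3K4me3 peaks at the start at all 4 stages, GV H3K4me3 covers 50.5% of positions 20 kb before the start and 16.3% of those 20 kb inside, and H3K27me3 is lowest in GV oocytes; the H3K36me3 rows show the choice of genes.

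H3K4me3 lay at the starts of most of these genes at every stage and was infrequent inside them. For genes without a strand in the tables a peak at either end counted. Of the 1096 genes, 845 had a peak within 1 kb of the start in c13 (77.1%; all genes 70.3%), 777 at E18.5 (70.9%; 59.8%), 872 in c34 cells (79.6%; 64.9%), and 907 in GV oocytes (82.8%; 72.7%). For 733 genes, or 66.9%, the start was marked at all 4 stages, against 53.5% of all genes, and for 136, or 12.4%, at none, against 3947 of all 20661 genes. So for most genes the promoter had an H3K4me3 peak at the early stages, when the gained bins of the body had no H3K36me3 peak. In 51 genes the start was marked in c34 and GV oocytes and not before, which is 4.65% of the 1096 genes and 3.27% of all genes. A further 47 were marked in GV oocytes alone, which is 4.29% of the 1096 genes and 6.17% of all genes.

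Over the gained bins themselves, an H3K4me3 peak was present in 1694 bins in c13 (19.2%; all genic bins 32.2%), 1480 at E18.5 (16.8%; 23.0%), 2145 in c34 cells (24.3%; 29.1%), and 1981 in GV oocytes (22.5%; 37.4%). Over single autosomes the share ran from 7.29% to 28.8% in c13, 9.68% to 25.8% at E18.5, 11.5% to 36.4% in c34 and 12.5% to 39.4% in GV oocytes, so the 4 ranges overlapped. All 4 shares were below those of genic bins in general. This was not particular to gained bins. Genic bins marked by H3K36me3 at E18.5 and both late stages but not in c13 had 16.7%, 14.7%, 21.8% and 21.5% in the same order. In GV oocytes the 20268 genic bins in no H3K36me3 list had a peak in 34.3% of cases, against 8.69% to 13.6% at the other 3 stages. Bins marked by H3K36me3 in c13 and both late stages carried H3K4me3 in 49.1% in c13 and 36.3% in GV oocytes.

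H3K4me3 was more frequent in gained bins at gene ends, as it was in genic bins in general. Among the 1484 gained bins that held an end of a protein-coding gene, 47.8% had a peak in c13, 41.0% at E18.5, 51.8% in c34 cells, and 55.7% in GV oocytes. For all genic bins with such an end the shares were 57.0%, 44.9%, 52.5% and 62.3%. Among the 6786 gained bins with no annotated gene end the shares were 13.1%, 11.7%, 18.4% and 15.3%. Such interior bins of all genes had a peak in 22.1%, 14.3%, 19.7% and 27.6% of cases. In GV oocytes interior bins in no H3K36me3 list had one in 32.2%. Bins wholly covered by GV H3K4me3 were 217, or 2.46% of the gained bins, against 12.1% of all genic bins and 14.8% of those in no H3K36me3 list. The profile around the 319 genes showed the same boundary: GV H3K4me3 covered 50.5% of positions 20 kb before the start, 90.3% of starts, 16.3% of positions 20 kb inside and 48.9% of positions 10 kb past the end. In c34 the corresponding shares were 17.6%, 86.5%, 16.3% and 24.5%. At 20 kb inside the genes the 2 late stages gave the same share, while outside them the GV share was higher.

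H3K27me3 was present in a part of the gained bins early and in few of them late. The share was 25.2% in c7 (2218 bins; all genic bins 34.9%), 34.8% in c13 (3069; 48.9%) and 24.4% at E18.5 (2147; 33.0%). It was 13.1% in c34 (1156; 35.8%) and 5.58% in GV oocytes (492; 25.4%). The ranges over autosomes were 5.82% to 65.6% in c7, 18.2% to 54.2% in c13, 7.18% to 62.1% at E18.5, 2.27% to 21.0% in c34 and 0.0% to 14.5% in GV oocytes. The c13 and GV ranges did not overlap, and those of all other pairs of stages did. The bins in no H3K36me3 list had it in 39.0% in c34 and 38.1% in GV oocytes, after 22.0% in c13 and 35.7% at E18.5. In bulk samples fewer marked cells and less mark per cell cannot be told apart.

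**Figure D3:**
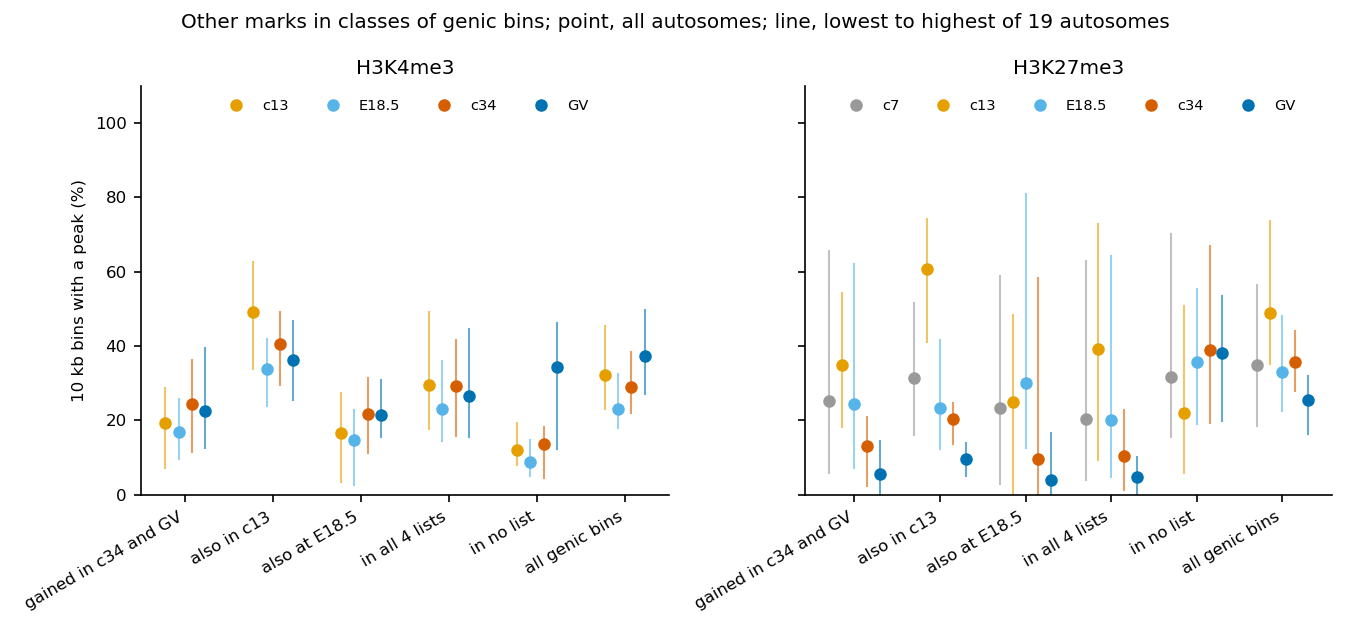
Percentage of 10 kb genic bins with an H3K4me3 peak (left) or an H3K27me3 peak (right) in 5 classes of bin set by H3K36me3 and in all genic bins; points are all autosomes, lines run from the lowest to the highest of 19 autosomes, and colours are stages. H3K27me3 lies in 34.8% of gained bins in c13 and 5.58% in GV oocytes, and in 22.0% and 38.1% of bins in no list.

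Bin by bin, 2316 of the 3069 gained bins with H3K27me3 in c13 lacked it in c34 (75.5%), and 1968 of the 2147 with it at E18.5 lacked it in GV oocytes (91.7%). For all genic bins these shares were 44.4% and 59.2%. Bins in no H3K36me3 list lost it in 12.8% and 52.0% of cases and acquired it in 25.3% and 32.6%. Such losses were not particular to gained bins: bins in all 4 H3K36me3 lists lost it in 78.9% and 86.6%, and those marked in c13 and both late stages in 69.4% and 77.8%. The mark was acquired in 403 of 5748 gained bins between c13 and c34 (7.01%; all genic bins 16.9%) and in 313 of 6670 between E18.5 and GV oocytes (4.69%; 17.8%). Of the gained bins, 4364 had no H3K27me3 at c13, E18.5, c34 or GV (49.5%; all genic bins 34.1%), and 4081 had none in c7 either (46.3%; 32.2%). Of these 4 stages, 1533 bins had it in c13 alone (17.4%; all genic bins 14.3%) and 924 at E18.5 alone (10.5%; 5.42%). A further 772 had it at both early stages alone (8.76%; 6.92%). Between the late stages, 732 of the 1156 bins with the mark in c34 lacked it in GV oocytes (63.3%; all genic bins 38.75%). Of 7661 without it in c34, 68 had it there (0.888%; 5.36%).

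**Figure D4:**
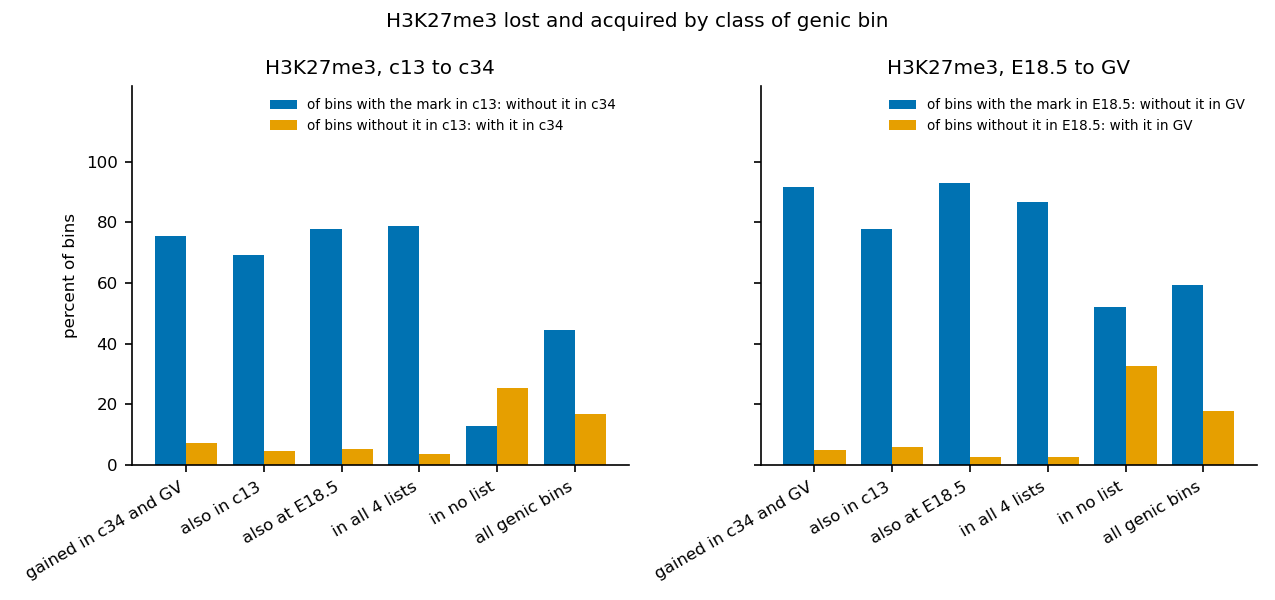
Bars give the percentage of bins with H3K27me3 that lacked it at the later stage (blue) and of bins without it that carried it there (orange), for c13 to c34 (left) and E18.5 to GV (right), by class of genic bin; axes start at 0. Gained bins lost the mark in 75.5% and 91.7% of cases, and bins in no H3K36me3 list in 12.8% and 52.0%.

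At the level of genes, H3K27me3 covered at least 50% of the body in 273 of the 1096 genes in c7 (24.9%; all genes 39.4%), 396 in c13 (36.1%; 53.8%), 215 at E18.5 (19.6%; 32.9%), 176 in c34 cells (16.1%; 37.1%), and 79 in GV oocytes (7.21%; 24.4%). At gene starts the mark was found in 350 genes in c7 (31.9%; all genes 43.3%), 492 in c13 (44.9%; 59.2%), 272 at E18.5 (24.8%; 7441 of 20661 genes), 235 in c34 cells (21.4%; 40.8%), and 91 in GV oocytes (8.30%; 25.7%). Around the 319 long genes the c34 share was 30.7% at 10 kb before the start and 12.9% at 20 kb inside, and the GV shares were 10.3% and 4.08%. In c13 they were 55.8% and 34.2%. So at each of these stages the inside of the genes carried less H3K27me3 than the flank.

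Genes of oocyte growth were among those with gained bins, although the lists used here were chosen with earlier results of these data known and none is independent support. Of 26 oocyte factors, 4 had a gained bin (15.4%; all genes 7.51%) and 3 had at least 50% of the body in such bins (all genes 5.30%). Other lists had similar or higher shares, such as 3 of 15 Polycomb genes (20.0%), so the oocyte list did not stand apart. Kit, the receptor through which KIT ligand drives oocyte growth, had 93.9% of its body in gained bins; its body carried H3K27me3 over 100.0% in c13 and over 0.0% in c7, E18.5, c34 and GV, and its start had H3K4me3 at all 4 stages. Bcl2l10, an oocyte member of the BCL2 family, was gained over its whole 3.88 kb, with no H3K27me3 at any stage and H3K4me3 at an end in c13, c34 and GV oocytes but not at E18.5. Nlrp14, which encodes an oocyte protein of the NLR family, had 68.6% of its body in gained bins, with H3K27me3 over 100.0% in c7 and at E18.5 and none in c13, c34 or GV oocytes. Oosp1, which encodes a secreted oocyte protein, had 46.8% of its body in gained bins, H3K27me3 over 100.0% in c7, c13 and at E18.5 and none late, and H3K4me3 at its start in c34 and GV oocytes only. In all 4 genes H3K27me3 was absent from both late lists, and Kit, Nlrp14 and Oosp1 differed in the earlier stages that carried it.

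Genes of meiosis and of the germline had no gained bin. None of 31 meiosis genes and none of 17 germline and piRNA genes did, where the share of all genes was 7.51%, which in lists this short is few genes, and H3K36me3 covered at least 50% of the body of 30 and 16 of them already in c13. At E18.5 the numbers were 8 and 5, and at both late stages 18 and 11. Of all 20661 genes, 14258 were so marked in c13, 4172 at E18.5 and 11291 at both late stages. None of 19 pluripotency and early germ cell genes, 30 developmental regulators, 19 genes of ovarian somatic cells or 15 genes with H3K27me3-dependent imprinting had a gained bin. Among these, 4, 4, 6 and 0 had at least 50% of the body marked at both late stages.

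Imprinted genes that are methylated in the maternal germline, with their host genes, had a gained bin in 6 of 26 cases (23.1%; all genes 7.51%) and at least 50% of the body in 4 (all genes 5.30%). These 6 genes are not separate cases. Nap1l5 shared its gained bin with Herc3, and Sgce shared its gained bin with Peg10. Plagl1, a zinc finger gene expressed from the paternal allele, had 95.8% of its body in gained bins. Its start had H3K4me3 in c13 and at E18.5 and not in c34 or GV oocytes, and H3K27me3 covered 100.0% of it in c7 and c13, 0.0% at E18.5 and 4.15% at both late stages. Nap1l5, which lies within an intron of Herc3, was wholly gained and likewise had H3K4me3 at its start at both early stages and at neither late one, with no H3K27me3 at any stage. Its host Herc3 had 89.9% of the body in gained bins and H3K4me3 at its start at all 4 stages. Peg10, a gene derived from a retrotransposon, had 96.1% in gained bins, with H3K27me3 over 100.0% in c7, c13 and at E18.5 and 0.0% late. Its neighbour Sgce had 9.89%, and kept H3K27me3 over 90.1% of the body in c34 and GV oocytes. Snrpn had 5.88%. The 2 genes Plagl1 and Nap1l5 share the loss of H3K4me3 at the start in both late lists, a pattern of 13 of the 1096 genes (1.19%) and of 2.06% of all genes.

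Genes of the chromatin machinery included writers and erasers of the marks studied. Among 12 genes of H3K4 methylation, 3 had gained bins (all genes 7.51%): Kdm1b, the H3K4 demethylase needed for maternal imprints in oocytes, and Kdm5b, an H3K4me3 demethylase, over the whole body, and the methyltransferase gene Kmt2a over 34.2%. Kdm1b carried H3K27me3 over 100.0% of its body in c13 and 0.0% at the other stages, Kdm5b over 3.96% in c13 and 0.0% elsewhere. Kmt2a stood apart with 100.0% in GV oocytes and 10.2% in c13. Among 15 Polycomb genes, 3 had gained bins (20.0%; all genes 7.51%). Rnf2, the ubiquitin ligase of complex 1, and Eed and Ezh2, core subunits of complex 2, had 96.9%, 96.3% and 61.1% of the body in gained bins. H3K27me3 covered 3.14% of Rnf2 in c13 and none of Eed or Ezh2 at any stage, and all 3 had H3K4me3 at the start throughout. Among 13 genes of H3K36 methylation, 1 had gained bins (7.69%; all genes 7.51%). This was Kdm4c, a demethylase of H3K9 and H3K36, with 67.3% of its body in them and H3K4me3 at the start in GV oocytes alone. Among 13 genes of DNA methylation, 1 had gained bins (7.69%; all genes 7.51%). This was Zfp57, whose protein protects imprints after fertilisation, with 92.4% of its body in them. H3K27me3 covered 100.0% of Zfp57 in c7, c13 and at E18.5 and 0.0% late.

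Of 18 genes of PI3K and mTOR signalling in follicle growth, 3 had gained bins (16.7%; all genes 7.51%). Igf1r, the receptor for insulin-like growth factor 1, had 97.2% of its 281.4 kb in them, and its H3K27me3 covered 98.7% in c7 and 100.0% in c13 but 0.0% at E18.5, and in c34 and GV oocytes. Pik3r1, the regulatory subunit gene of PI3K, had 90.6%, with H3K27me3 over 100.0% in c7, c13 and at E18.5 and none late. Rictor, a subunit gene of mTOR complex 2, had 21.7%, since 76.5% of its body was marked in c13. Of 25 genes of meiotic arrest and maturation, 1 had gained bins (4.0%; all genes 7.51%). This was Cdk1, the kinase that drives resumption of meiosis, with 83.6% of the body in them and H3K27me3 over 100.0% in c13 alone. Of the 25 genes, 23 were marked by H3K36me3 over at least 50% of the body in c13, and 25 at both late stages. For all 20661 genes these numbers were 14258 and 11291.

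Calcium signalling genes had a gained bin in 6 of 20 cases (30.0%; all genes 7.51%). Only 1 of the 20, Atp2b4, a plasma membrane calcium pump gene, had at least 50% of the body in such bins (all genes 5.30%). Atp2b4 was wholly gained and kept H3K27me3 over 58.3% of the body in c34 and in GV oocytes. The others were Ryr3, a ryanodine receptor gene, with 40.5%, Plcb1, a phospholipase C gene, with 37.0%, Camk4, a calmodulin-dependent kinase gene, with 29.1%, the calcineurin gene Ppp3ca with 10.3% and the pump gene Atp2b1 with 5.51%. Long genes offer more bins: Ryr3, Plcb1, Camk4 and Ppp3ca spanned 586.1, 689.1, 260.8 and 268.0 kb. The median of all genes was 17.5 kb. Ryr3 and Atp2b1 were marked by H3K36me3 over 59.5% and 94.5% at E18.5. Among 25 genes of maternal mRNA storage and decay, 2 had gained bins (8.0%; all genes 7.51%), a share near that of all genes. Ddx6, an RNA helicase gene, and Cnot6l, a deadenylase gene, had 81.4% and 52.9% of the body in them. Neither carried H3K27me3 over more than 1.94% of the body at any stage. Among the housekeeping genes, Hspa8 was wholly gained and Eef1a1 had 47.3%; Hspa8, which lies in 1 bin, had H3K27me3 in c34 alone.

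**Figure D5:**
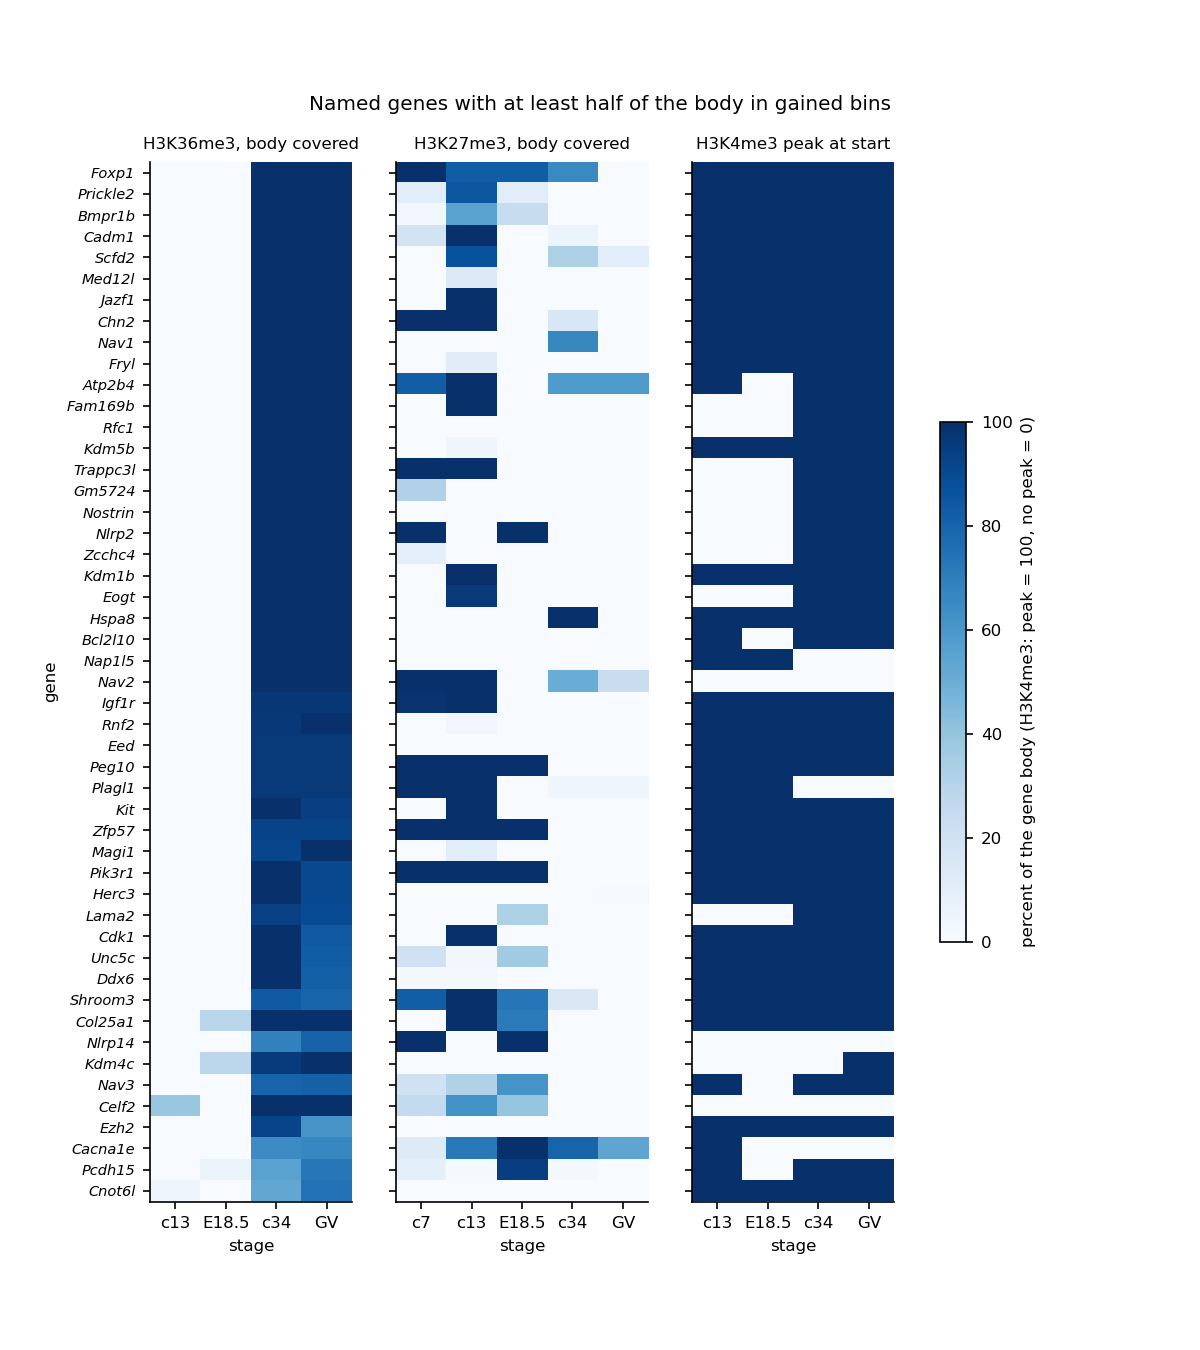
Each row is a gene named in the text with at least 50% of its body in gained bins; shades give the percentage of the body covered by H3K36me3 (left) and H3K27me3 (middle) at each stage, and whether an H3K4me3 peak lay at the start (right, full shade for a peak). H3K36me3 is light early and dark late by the choice of genes, and Kit, Igf1r and Pik3r1 are dark for H3K27me3 at 1 or more early stages and blank in c34 and GV oocytes.

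The genes with the most gained bins were very long. Pcdh15, a protocadherin gene, had 84 gained bins, Cntnap2, a neurexin family gene, and Nav2 had 66 each, Foxp1 61, Magi1, a junctional scaffold gene, 57 and Lama2, a laminin subunit gene, 55. Celf2, an RNA-binding protein gene, had 53, Nav3 52, Dab1, the reelin adaptor gene, 50 and Ntm, a cell adhesion gene, 47. The length of such genes allows many bins, and only Nav2, Foxp1, Magi1, Lama2, Nav3, Celf2 and Pcdh15 had at least 50% of the body in them. Among genes of at least 50 kb the longest with the whole body gained were Foxp1, Prickle2, Bmpr1b, Cadm1, Scfd2, Med12l, Jazf1, Chn2, Nav1 and Fryl, from 597.4 kb down to 236.5 kb. All 10 had H3K4me3 at the start at all 4 stages. Their H3K27me3 history varied: Med12l, a Mediator subunit gene, and Fryl carried it over 12.8% and 11.3% of the body in c13 only, while Chn2 carried it over 100.0% in c7 and c13, 0.0% at E18.5, 15.3% in c34 cells, and 0.0% in GV oocytes. Bmpr1b carried it over 2.88% in c7, 54.9% in c13 and 23.9% at E18.5 and over none late, and its neighbour Unc5c over 20.2%, 2.53% and 36.4% and none late. Nav1 differed from the rest, with none early or in GV oocytes and 66.3% in c34.

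In 109 of the 1552 genes with a gained bin, most gained bins had H3K27me3 in both c13 and E18.5 oocytes and in neither late list. Counted by bin, this pattern held in 8.76% of gained bins and 6.92% of all genic bins. The largest by gained bins were Celf2, Prkg1, a cGMP-dependent kinase gene, Col25a1, a collagen gene, Pde4d, a cAMP phosphodiesterase gene, Car10 and Shroom3, an actin regulator gene. In Col25a1 all 30 gained bins had the mark in c13 and 26 at E18.5, and 0 in c34 and GV oocytes. In Shroom3 the 23 gained bins had it in 18, 23 and 15 cases in c7, c13 and at E18.5 and in 0 cases late.

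H3K27me3 in gained bins at a late stage, whether or not it was there before, was found in 343 of the 1552 genes with a gained bin. Here H3K36me3 and H3K27me3 peaks lay over the same bins. Late H3K27me3 was less frequent in gained bins than in all genic bins, with 13.1% against 35.8% in c34 and 5.58% against 25.4% in GV oocytes. Of the 66 gained bins of Nav2, 66 had H3K27me3 in c7 and in c13, 0 at E18.5, 33 in c34 cells, and 15 in GV oocytes. Of the 61 of Foxp1, 60, 50, 50, 39 and 0 did in the same order. Adgrv1, an adhesion receptor gene, had it in 24 of 24 in c34 and 17 in GV oocytes after 0 at each earlier stage, and Cacna1e, a calcium channel gene, in 20 and 10 of 30 after 30 at E18.5. Dab1 had it in 46 of 50 in c34 and 17 in GV oocytes, and Ntm in 41 and 12 of 47. For all 6 genes fewer bins carried it in GV oocytes than in c34. Peak lists from many cells do not show whether both marks lay on the same chromatin.

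H3K4me3 at the start in c34 and GV oocytes and in neither early list was found in 70 of the 1552 genes with gained bins. It was found in 3.27% of all genes. Of the 70 genes, 51 had at least 50% of the body in gained bins. Those with the largest share of the body were Fam169b, Gm5724, Rfc1, Trappc3l, Nlrp2, Nostrin, Zcchc4 and Eogt, all wholly gained. Nlrp2, an oocyte gene of the NLR family with maternal effects, had H3K27me3 over 100.0% of its body in c7 and at E18.5 and over 0.0% in c13, c34 and GV oocytes, as Nlrp14 had. Fam169b and Trappc3l carried H3K27me3 over 100.0% in c13, Trappc3l also in c7, and neither did at E18.5 or late. Eogt, an O-GlcNAc transferase gene, carried it over 96.4% in c13 alone, and Rfc1 and Nostrin carried none at any stage. Of the 7 of these genes with a promoter in the RefSeq table, 6 had 0 to 4 CpG dinucleotides and Rfc1 had 35. Zcchc4, an RNA methyltransferase gene, had 5 gained bins of 6 with H3K4me3 in c13 although its annotated start had none.

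Genes for small RNAs lay in gained bins as well. Of 1136 autosomal miRNA genes, 49 (4.31%) lay wholly in them, and 47 of these had a mature sequence in the RefSeq table. The most frequent seed (bases 2 to 8) among the 83 mature miRNAs was AAGUGCU, carried by some members of the miR-290 to miR-295 and miR-302 clusters, which promote cell cycling in embryonic stem cells. All 5 mature miRNAs of the table with this seed lay in gained bins at 2 places; this seed was picked after the counts were seen. Their sequences follow, with the seed in capitals.
miR-291a-3p: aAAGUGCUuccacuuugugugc
miR-294-3p: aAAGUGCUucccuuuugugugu
miR-295-3p: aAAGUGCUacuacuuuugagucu
miR-302b-3p: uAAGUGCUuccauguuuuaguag
miR-302d-3p: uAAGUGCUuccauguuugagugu

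The first 3 come from the cluster at chr7:3218626-3220841 and lie within the annotated span of Nlrp12, and the other 2 from the cluster at chr3:127545228-127545807 within Larp7, a gene for a 7SK RNA-binding protein. In the bin with Mir290a to Mir291b, H3K4me3 was present at all 4 stages, and in the bin with Mir293, Mir294 and Mir295 in c13 and c34. H3K27me3 was present in both bins in c13 alone. The Larp7 bin with Mir302b, Mir302c, Mir302a, Mir302d and Mir367 had H3K4me3 in GV oocytes alone and no H3K27me3 at any stage. Among other miRNA genes, Mir15b and Mir16-2 shared a bin within Smc4, a condensin gene, that had H3K4me3 at all 4 stages and no H3K27me3. Mir155 lay in a gained bin with H3K27me3 in c7, c13 and at E18.5, and Mir199a-2 and Mir214 lay within Dnm3 in bins with H3K4me3 in c13 alone. Peaks over a host gene do not show which transcript was made.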

How the data were processed

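The labels list 35 libraries, 8 for H3K36me3, 9 for H3K4me3, 9 for H3K27me3 and 9 for input. The deposited data are 13 peak lists, and their unit is other than counts: each row gives a chromosome, a start and an end, per the file headers, with no score. H3K4me3 peaks began and ended at steps of 1 kb, H3K27me3 and H3K36me3 peaks at steps of 10 kb. The aligner Bowtie2 2.3.4.1 and the peak callers SICER 0.0.41 and MACS2 2.1.1 are named in the submitters' processing notes. The caller of each list, its threshold and any pooling of libraries are not stated there, and depth is unknown.

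Peaks were laid on 10 kb bins of the 19 autosomes, and a bin counted as marked from 1 bp of peak. Gene positions, strands, promoters and miRNAs came from RefSeq tables of GRCm38.p6, a patch release with the same chromosomes as the build of the peaks. Strand was known for 16456 of 20661 genes. A gene start was marked by a peak within 1 kb. Members and the 17 gene lists (350 entries, all matched, 2 through a synonym, 8 on X left out) were chosen with earlier results of these data known. Named genes were the 10 with most gained bins, the 10 of at least 50 kb with the largest share of the body, up to 6 of each list, the leading genes with early or late H3K27me3 or late H3K4me3, and those of the 3 longest runs. With 1 list per stage and mark no test was made. The bin arithmetic was tested on simulated data: 200 of 200 planted genes and 1392 of 1392 bins were found, with 0 others called. Alternatives changed gene overlap, early and late peak widths, neighbouring bins, the E18.5 list, chromosome X and the shares that count as marked. Python 3.11.15, numpy 2.4.6 and pandas 2.3.3 were used, with matplotlib 3.10.9 for figures. Input libraries were not used here. The result for 1 gene is not reported here.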

Additional observations from a re-analysis of the deposited data

How the results depend on the processing

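Leaving out early H3K36me3 peaks of at least 1 Mb changed the most: 45179 gained bins, 10428 genes with a gained bin and 9238 with at least 50% of the body in them. H3K4me3 then lay in 41.8%, 29.7%, 36.6% and 32.8% of bins in c13, at E18.5, and in c34 and GV oocytes, and H3K27me3 in 29.5% in c7, 55.8% in c13, 18.6% in c34 and 8.54% in GV oocytes. Without the E18.5 list, 1665 genes had at least 50% of the body gained, and H3K27me3 lay in 31.8%, 26.1%, 12.0% and 5.07% of bins in c13, at E18.5, and in c34 and GV oocytes. With X it lay in 33.4% in c13 and 25.3% at E18.5. H3K4me3 in c13, at E18.5, and in c34 and GV oocytes lay in 17.5%, 15.4%, 22.5% and 20.0% of bins with at least 5 kb of gene, and in 17.6%, 15.2%, 22.9% and 20.9% of bins with exactly 1 gene. Counted from 5 kb of peak per bin, the shares were 4.78%, 4.87%, 10.2% and 10.8%, so the order of c34 and GV oocytes, and that of c13 and E18.5, turned between these settings, and the cause was not tested. In 8 settings of 8, H3K27me3 in gained bins was highest in c13, lowest in GV oocytes, and lower at both late stages than at each early one. The number of libraries behind a list, from 1 to 4, and the unknown depth limit every comparison between stages. No paired analysis was possible because each stage and mark has 1 list with no replicate columns.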

Other observations

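Intergenic bins gained H3K36me3 at both late stages too. There were 5093 such bins, with no protein-coding gene, no H3K36me3 peak in c13 or at E18.5 and peaks in both c34 and GV oocytes. H3K27me3 lay in 34.9% of them in c7, 32.3% in c13, 45.2% at E18.5, 17.7% in c34 cells, and 7.19% in GV oocytes. Of those with it at E18.5, 95.2% lacked it in GV oocytes, and of those with it in c13, 63.0% lacked it in c34. H3K4me3 lay in 6.26% in c13, 4.69% at E18.5, 18.6% in c34 cells, and 22.2% in GV oocytes. In genic gained bins the 4 shares were 19.2%, 16.8%, 24.3% and 22.5%, with both late shares above both early ones there too.

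Bins free of early H3K36me3 that carried it at 1 late stage alone differed in their late H3K27me3. Of the 3339 genic bins marked in GV oocytes alone, 37.4% had H3K27me3 in c34 and 14.9% in GV oocytes. Of the 1725 marked in c34 alone, 25.2% had it in c34 and 22.1% in GV oocytes. The genic bins gained at both stages had it in 13.1% and 5.58%. H3K4me3 in GV oocytes lay in 45.7% of the bins marked in c34 alone and in 26.3% of those marked in GV oocytes alone.

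Outside protein-coding genes, 251 of 12408 lncRNA genes (2.02%) and 168 of 8884 pseudogenes (1.89%) lay wholly in gained bins.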
